A study of Drosophila melanogaster with 2 samples.

Results

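The genes described here are 5 transcription factor genes of the Drosophila melanogaster neuroectoderm, the sheet of embryonic cells from which the neuroblasts (neural stem cells) of the ventral nerve cord arise: vnd, ind and Dr, which pattern its columns, and the Sox genes SoxN and D. They were chosen by name from the Ensembl annotation, where all 5 matched, out of 13945 protein-coding genes. Every candidate peak whose summit, the position of highest enrichment within the peak, lay within 10 kb of a start site of a member or inside its span was taken. This gave 33 of the 30000 candidates called on the pooled reads, and 3 of the 2487 peaks that passed the authors' reproducibility threshold, called thresholded peaks below. The separate lists contributed 42 of 30000 candidates in replicate 3 and 39 of 30000 in replicate 4.

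Chromatin immunoprecipitation with sequencing was done on whole embryos of both sexes, collected at 0 to 12 hours, from a stable transgenic line in which E(spl)m5-HLH carries GFP at its C terminus. The 2 samples, replicates 3 and 4, form 1 group, so the data allow the replicates and the sites to be described but hold no contrast between conditions and no test over samples. The antibody label and assay title describe an immunoprecipitation of the tagged protein, whereas the free-text description of both samples names an input control, and the values are given on the first reading. The age range covers embryos before, during and after neuroblast formation, the whole embryo mixes neural with all other tissues, and no peak list from an untagged line was used here. The signal of a peak is the authors' value against a control alignment, on a scale not given in the sources used here. Read depth is unknown, and the lists were normalised separately, so ranks within a list (1 is the strongest) are set side by side.

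The tagged protein, E(spl)m5-HLH, belongs to the basic helix-loop-helix (bHLH) repressors of the Enhancer of split complex, which Notch signalling switches on in cells that are kept from becoming neuroblasts. The column genes encode homeodomain proteins that divide the neuroectoderm from ventral to dorsal: vnd acts in the ventral column, ind in the intermediate column and Dr, also known as muscle segment homeobox, in the dorsal column, and more ventral genes repress more dorsal ones. SoxN and D (Dichaete) encode SoxB group proteins with an HMG DNA-binding domain, are expressed in overlapping parts of the neuroectoderm, and act with the column genes and in part for each other in neuroblast formation. All coordinates are on dm6, 1-based.

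A thresholded summit lay at vnd, Dr and D, and none lay in the windows of ind and SoxN. The site at vnd was at the promoter, that at Dr was far upstream, and that at D was past the end of the gene. The sequences around these 3 summits are shown because the summits passed the threshold. Those around the promoter summits of Dr and SoxN, just short of the threshold, are shown for comparison. Each is from the RefSeq copy of the assembly, runs 5′ to 3′ on the strand of its gene, reaches 100 bases to each side of the summit, and was cut before the first exon at vnd and at Dr. Capitals mark matches on either strand to the motifs searched, which are spelled out further on.

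The thresholded summit of vnd lay on the plus strand of chrX:581937-582120.
vnd, promoter: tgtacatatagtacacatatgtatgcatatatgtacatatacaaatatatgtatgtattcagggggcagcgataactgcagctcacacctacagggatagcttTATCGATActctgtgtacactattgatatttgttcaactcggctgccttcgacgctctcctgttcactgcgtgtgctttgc
The thresholded summit of Dr lay on the plus strand of chr3R:29547514-29547714.
Dr, distal: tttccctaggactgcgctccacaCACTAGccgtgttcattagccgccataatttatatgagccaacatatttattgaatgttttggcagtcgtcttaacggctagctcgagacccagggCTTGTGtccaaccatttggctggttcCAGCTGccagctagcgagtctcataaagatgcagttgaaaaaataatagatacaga
The thresholded summit of D is given on the minus strand of chr3L:14174267-14174467.
D, distal: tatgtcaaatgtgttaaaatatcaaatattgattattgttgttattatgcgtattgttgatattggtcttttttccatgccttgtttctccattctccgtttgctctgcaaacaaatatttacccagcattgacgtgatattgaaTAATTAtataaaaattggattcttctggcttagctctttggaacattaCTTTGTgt
The promoter summit of Dr, not thresholded, lay on the plus strand of chr3R:29556197-29556385.
Dr, promoter: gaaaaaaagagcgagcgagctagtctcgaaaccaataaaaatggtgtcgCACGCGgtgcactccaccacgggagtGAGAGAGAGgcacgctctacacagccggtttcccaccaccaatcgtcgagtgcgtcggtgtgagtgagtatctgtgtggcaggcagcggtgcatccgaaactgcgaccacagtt
The promoter summit of SoxN, not thresholded, lay on the plus strand of chr2L:8825376-8825576.
SoxN, promoter: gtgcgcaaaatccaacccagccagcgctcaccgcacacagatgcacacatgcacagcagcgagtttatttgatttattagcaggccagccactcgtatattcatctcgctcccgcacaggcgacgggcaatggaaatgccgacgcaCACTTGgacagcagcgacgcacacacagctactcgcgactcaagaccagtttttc

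The ventral column gene vnd, at X 582121 to 598151 on the plus strand, had its strongest summit at its promoter. This thresholded summit, at X 582037, was intergenic and 84 bp upstream of the more upstream of 2 start sites. Its pooled signal was 134 (rank 1832), with 67.1 (rank 2270) in replicate 3 and 75.0 (rank 1572) in replicate 4. Both replicates placed their own strongest summit of the vnd window here, 5 and 18 bp from the pooled position, and both ranked it among their 2487 strongest. It was a weak member of the thresholded list, where 73.6% of peaks had a higher signal and the median was 162. Over all protein-coding genes it was stronger than the best promoter summit of 91.1% of them, counting genes without a candidate as weaker.

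A second vnd summit, 955 bp upstream of the same start site, had a pooled signal of 78.4 (rank 4894) and differed between the replicates. It ranked 2511 in replicate 3, just outside the 2487 strongest, and had no summit within 100 bp in replicate 4, where the nearest was 131 bp away at rank 11516. The other 4 vnd candidates were weaker, with signals from 39.3 to 52.9. Of these, 3 lay in introns of vnd, and 1 lay 1018 bp past its end in an intron of spdi. The more downstream start site of vnd, at 591042, had no candidate within 1 kb; its nearest lay 1785 bp downstream of it, at rank 16842.

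The intermediate column gene ind, at 3L 15042799 to 15043924 on the minus strand, had no candidate of any strength within 1 kb of its start site. Its window held 5 candidates, with pooled signals from 32.3 to 72.9, none past the threshold. The strongest lay 4422 bp upstream at rank 5564, and ranked 12336 in replicate 3 and 5482 in replicate 4. The next, 4109 bp downstream of the start site at rank 6431, showed the reverse order, at 3763 in replicate 3 and 19733 in replicate 4. The replicates therefore placed their strongest ind summits on opposite sides of the gene. ind lies inside Sytbeta, a synaptotagmin gene, which is among 8 other coding genes that start in its window. Of the 5 candidates, the one 1690 bp upstream, at rank 10317, had ind as the gene with the nearest start site, and CG43678, Rpn12R, Sytbeta and CG12310 were nearest to the others. The nearest thresholded summit, at rank 1689, was 11957 bp from ind and nearest to a start site of Sytbeta.

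The dorsal column gene Dr, at 3R 29556386 to 29565244 on the plus strand, had the most candidates of the 5 genes, 11 in its window of 20 kb. That count exceeded those of 82.7% of protein-coding genes, whose median was 5. No other gene starts in this window. The thresholded summit, at 3R 29547614, was intergenic and 8772 bp upstream of the start site, with Dr as the nearest gene. Its pooled signal was 127 (rank 2048), with 58.3 (rank 2993) in replicate 3 and 74.5 (rank 1592) in replicate 4. Only replicate 4 ranked it among its 2487 strongest, although the 2 replicate summits fell within 9 bp of the pooled one.

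The promoter summit of Dr, 89 bp upstream of the start site, stood just past rank 2487 in all 3 candidate lists. Its pooled signal was 109 (rank 2742), with 62.0 (rank 2659) in replicate 3 and 58.0 (rank 2567) in replicate 4. The weakest thresholded peak of the genome had a signal of 114.38 and the next candidate 114.33, so the list ended within a continuous range of signals. In replicate 3 this promoter summit was the strongest of the Dr window, and in replicate 4 the distal one was. A summit in a Dr intron, 3272 bp downstream of the start site, had a signal of 87.9 (rank 4033), and 1 lying 7419 bp upstream had 77.8 (rank 4953). Both were found in both replicates, at ranks 5426 and 3799 for the first and 6084 and 6055 for the second. The remaining 7 candidates of Dr had signals from 28.7 to 42.3, and none of them was matched in both replicates.

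**Figure D1:**
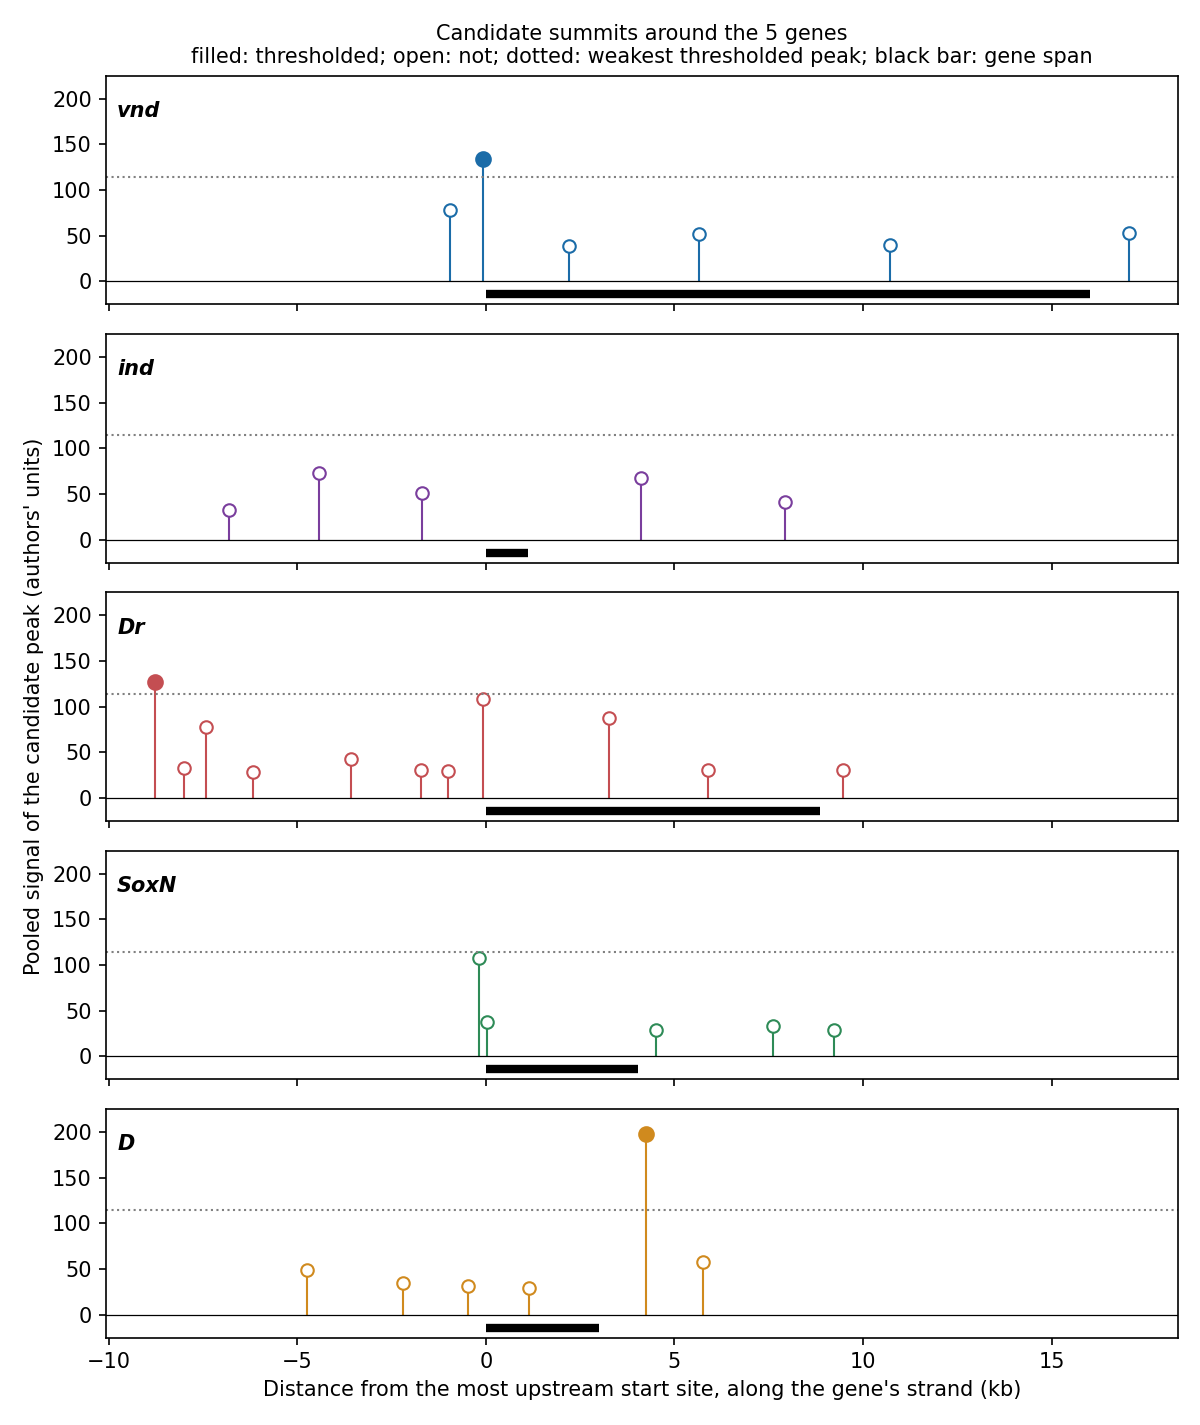
Pooled signal of every candidate summit in the windows of the 5 genes, plotted against the distance in kb from the most upstream start site along the strand of the gene. Filled points are the 3 thresholded summits, at vnd, Dr and D, open points are the other 30 candidates, the dotted line is the weakest thresholded signal (114.38), and the black bar is the span of the gene.

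SoxN, at 2L 8825645 to 8829670 on the plus strand, had a promoter summit that rested on replicate 3. The summit, 169 bp upstream of its single start site, had a pooled signal of 108 (rank 2779), just short of the threshold. In replicate 3 it had a signal of 81.4 and ranked 1526, among the 2487 strongest. In replicate 4 no summit lay within 100 bp. The nearest of replicate 4, 164 bp away and 5 bp from the start site, ranked 8197 with a signal of 31.7, and was matched to a second, weaker pooled summit 34 bp inside the 5' UTR (37.1, rank 18876). Of the 2487 pooled candidates that follow the thresholded ones in rank, 12.2% were likewise matched in replicate 3 alone and 76.5% in both. The other 3 SoxN candidates lay past the end of the gene, with signals from 28.6 to 33.2, and neither replicate had a summit within 100 bp of them. No other gene starts in the window. The nearest thresholded summit was 15664 bp away (rank 1646), and SoxN was the gene with the nearest start site.

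D, at 3L 14175610 to 14178620 on the minus strand, had the strongest summit of the 5 genes, away from its promoter. The thresholded summit, at 3L 14174367, was intergenic, 1243 bp past the end of the gene and 3170 bp from the nearer of its 2 start sites. Its pooled signal was 197 (rank 846), with 96.9 (rank 1061) in replicate 3 and 111 (rank 673) in replicate 4. Both replicates had their strongest summit of the D window here, and both ranked it well inside their 2487 strongest. In the thresholded list 34.0% of peaks were stronger. The strongest summit of the window exceeded that of 83.3% of protein-coding genes, again counting genes without a candidate as weaker. The peak was 126 bp wide in the pooled list, whereas the other 32 candidates of the 5 genes had the common width of 380 bp.

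The promoter of D carried only weak candidates. The stronger of the pair within 1 kb of a start site lay 484 bp upstream and had a signal of 31.9 (rank 24803), near the lowest of the pooled list (28.5). It was matched in replicate 3 alone, at rank 16880, and the other, 50 bp downstream of the inner start site, in replicate 4 alone, at rank 8741. A summit 2757 bp past the end of the gene had a signal of 57.3 (rank 8508) and was found in both replicates, at ranks 15145 and 6834. No other gene starts within this window.

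Set side by side, the strongest pooled signals were 197 at D, 134 at vnd, 127 at Dr, 108 at SoxN and 72.9 at ind. The order was not the same in the 2 replicates. In replicate 3 it was D (96.9), SoxN (81.4), vnd (67.1), Dr (62.0) and ind (51.9), and in replicate 4 it was D (111), vnd (75.0), Dr (74.5), ind (38.8) and SoxN (31.7). D was thus first in both, vnd stood above Dr in both by a margin that was small in replicate 4, and SoxN moved from second to last. With 1 value a replicate, the spread behind neighbours in this order could not be estimated.

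A promoter was called bound if any start site of its gene had a thresholded summit at most 1 kb away. On this rule 1 of the 5 genes, vnd, was bound, beside 11.9% of all protein-coding genes. In the wider window 3 of 5 had a thresholded summit, beside 37.2% of all protein-coding genes, and the median number of such summits was 1 in the 5 genes and 0 over all. A candidate of any strength lay within 1 kb at 4 of the 5, ind being the exception, beside 57.5% over all. From the 2487 strongest candidates of replicate 3 alone, vnd and SoxN were bound (12.2% over all genes), and from those of replicate 4 alone, vnd (11.5%). With 5 genes, nothing particular to them can be read from these counts. The median number of pooled candidates in a window was 6, against 5 over all genes.

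Of the 33 pooled candidates, 11 (33.3%) had a summit within 100 bp in both replicates, 6 in replicate 3 alone, 10 in replicate 4 alone and 6 in neither. Over all 30000 candidates 31.2% were matched in both and 15.4% in neither, so the share found in both replicates was near that of the whole list. Dr had 4 of its candidates matched in both, ind 3, vnd and D 2 each, and SoxN 0. Of the 33, 20 lay in intergenic DNA, 10 in introns, 2 in 5' UTRs and 1 in a coding exon, and for 29 the gene with the nearest start site was the member itself.

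**Figure D2:**
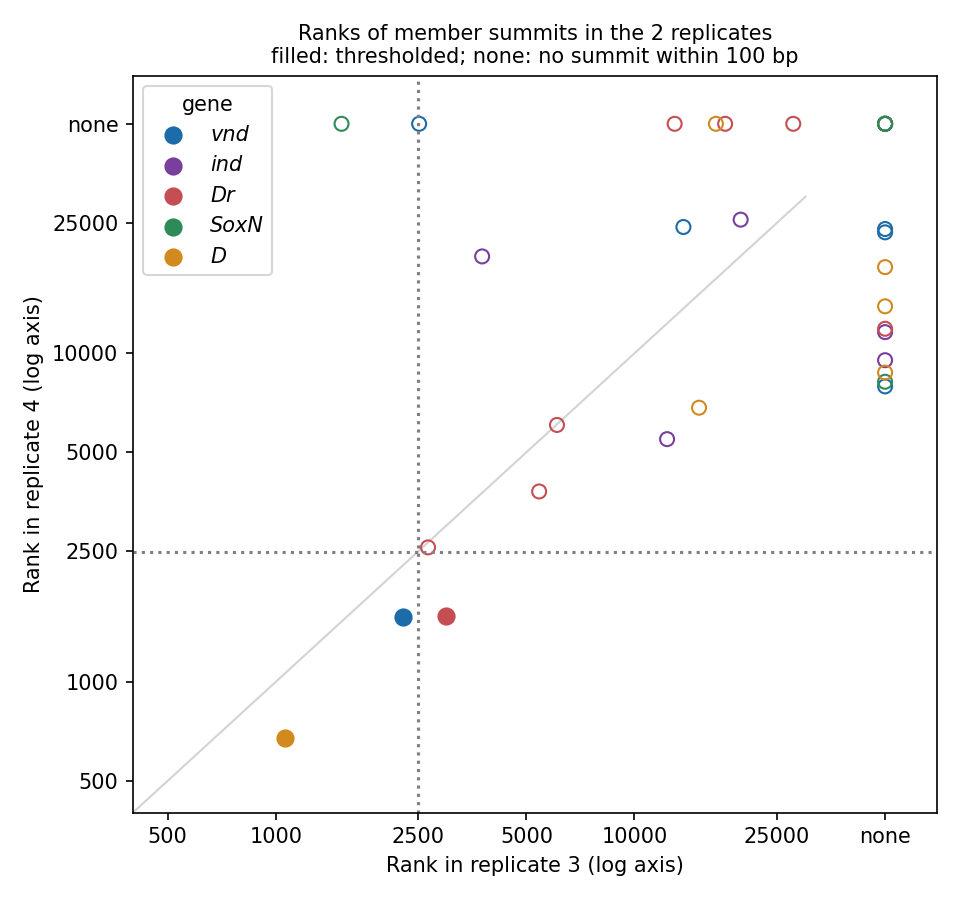
Rank of each of the 33 pooled candidates in replicate 3 (horizontal, log axis) and replicate 4 (vertical, log axis), coloured by gene, with candidates lacking a summit within 100 bp placed at none. Dotted lines mark rank 2487; vnd and D have a filled point (thresholded) inside both lines, that of Dr lies inside only for replicate 4, and the SoxN promoter summit at rank 1526 in replicate 3 has no match in replicate 4.

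Motifs were searched on both strands in windows reaching 100 bp to each side of the summits. Those described for the E(spl) family are CACGTG, its extended form GGCACGTG (which contains it), CACGCG and the N box CACNAG. None of the 33 windows held CACGTG or GGCACGTG, which occurred in 5.79% and 1.29% of all thresholded windows and in 3.48% and 0.613% of all candidate windows; 30 of the 33 were not thresholded. CACGCG was in 3 windows, at the Dr promoter, at the SoxN summit inside the 5' UTR and at the ind summit 4109 bp downstream, all outside the thresholded list, beside 9.81% of thresholded and 6.13% of all candidate windows. CACNAG was in 3 windows, among them the thresholded Dr summit with 2 copies, beside 26.3% and 22.9%. In all, 6 of 33 windows (18.2%) held a family site, against 37.0% of thresholded and 30.1% of candidate windows. In windows reaching 200 bp to each side the count was 13 (39.4%), against 54.1% and 49.5%. The thresholded summits of vnd and D held none.

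The E box of proneural activators, CAGCTG, was in 5 windows, 4 of them at Dr, including the thresholded one, and 1 at ind, beside 16.2% of thresholded and 11.4% of candidate windows. Sites of Su(H), the DNA-binding protein through which Notch acts, were searched as TGTGGGAA, TGTGAGAA, CGTGGGAA and CGTGAGAA, and 1 window, of a weak intronic vnd summit, held CGTGGGAA. Each of the 4 forms occurred in under 1% of all thresholded and of all candidate windows, CGTGGGAA in 0.603% and 0.36%. The site of the early activator Zelda, CAGGTAG, was in none of the 33 (2.57% of thresholded and 1.63% of candidate windows), and GAGAGAG was in 1, at the Dr promoter in 2 overlapping copies (9.61% and 5.31%).

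The sites of the proteins that these genes encode were searched by their cores. ACAAAG, a core recognised by Sox proteins, was in 10 of 33 windows (30.3%), against 15.8% of thresholded and 14.9% of candidate windows. The windows were 3 of D, 3 of Dr, 2 of vnd and 1 each of ind and SoxN, and only 1, at D, was thresholded. It was also the only 1 of the 10 whose summit was matched in both replicates. Apart from it and a vnd summit at rank 4894, their pooled signals ran from 29.1 to 39.3, near the lowest of the list (28.5). The other Sox core, ACAATG, was in 4 (12.1%, against 12.5% and 12.6%). The NK-2 core CAAGTG, bound by the vnd protein, was in 3, including the SoxN promoter (12.6% of thresholded and 14.2% of candidate windows). The homeodomain core TAATTA was in 4, including the thresholded D summit (9.17% and 10.7%). That D window was AT-rich, with a GC content of 30.3% beside a median of 43.3% over thresholded windows, of which 4.99% were lower. These cores are short, and a match says only that the letters occur.

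The promoter sequence of vnd held none of the listed motifs. TATCGATA, the site of the promoter factor DREF, was looked for after the sequence had been seen. It begins at base 104 of the printed vnd sequence, 3 bases past the summit, and was also in the window of the summit 955 bp upstream, but at no other member summit. Of thresholded windows 2.77% held it, and of candidate windows 1.61%.

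The same promoter rule was applied to 3 lists of genes that act around the 5 (Sox relatives, dorsoventral inputs and neuroblast genes), beside the 11.9% of protein-coding genes that were bound. The lists were drawn up with earlier results of these data known. Of 6 other Sox genes, 2 were bound. These were Sox14, at rank 96 with ranks of 113 and 105 in replicates 3 and 4, and Sox102F, at rank 2407 with 1676 and 7585. These replicate ranks are of summits within 100 bp of the pooled one. The best Sox102F summit within 1 kb in replicate 4 ranked 3504. Sox21a and Sox21b, the other SoxB group genes, were not bound, with their best promoter summits at ranks 13705 and 6971. None of the 4 SoxB group genes (SoxN, D, Sox21a and Sox21b) had a thresholded promoter summit.

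Of 13 genes giving dorsoventral input to the neuroectoderm, 5 were bound. They were spi, a ligand of the EGF receptor (rank 263), the ETS genes pnt (563) and aop (1333), which act downstream of that receptor, and the repressor genes sna (988) and brk (1984). From the 2487 strongest candidates of each replicate alone, only spi and pnt were bound in both. In replicate 3 alone sna (rank 498), aop (857), brk (1376) and Egfr, the EGF receptor gene (2229), were bound. The best summits of these genes within 1 kb in replicate 4 ranked 2570, 2991, 14500 and 5304. For brk these ranks are not those of its thresholded summit, which lay 930 bp from a start site. That summit had no replicate 3 summit within 100 bp. In replicate 4 it was matched at rank 690, by a summit that fell outside the 1 kb limit. In replicate 4 alone rho (736) and dpp (2264) were bound. rho, which encodes a protease that activates spi, had a summit at its start site at rank 2657, just outside the threshold. This summit was matched in replicate 4 (736) and had no replicate 3 summit within 100 bp. The best rho summit of replicate 3 within 1 kb was a separate one, 757 bp from a start site, at rank 3531. dl, the maternal factor that sets up the dorsoventral axis, stood at 11882, and zen had no candidate within 1 kb.

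Of 12 neuroblast genes that act with or after the 5, 8 were bound. They were insc (rank 472), the Snail family genes wor (605) and esg (759), the proneural gene ac (678), the corepressor gene gro (1084), mira (1192), which encodes an adaptor for asymmetric division, the bHLH gene ase (1237) and pros (2173), a homeodomain gene of differentiating daughter cells. sc, l(1)sc, scrt and nerfin-1 were not bound, at ranks from 2875 to 13357. From each replicate alone, 7 of the 12 were bound in both. The gene pros was bound in replicate 4 (1473) and not in replicate 3 (3334), whereas scrt and nerfin-1 were bound in replicate 3 (1682 and 1728) and not in replicate 4 (6203 and 13621). These are the best ranks within 1 kb in each replicate, which need not belong to the same summit. For scrt, the best pooled summit (rank 2875) was matched at 9581 in replicate 3 and 6203 in replicate 4. The gene gro lies inside the Enhancer of split complex. The median rank of the best promoter summit was 1214 over the 12 neuroblast genes, 2776 over the 12 dorsoventral genes with a candidate and 7030 over the 6 Sox genes, beside 7348 over the 8021 protein-coding genes with a candidate there. Among the 5 genes themselves the ranks were 1832, 2742, 2779 and 24803, with none for ind.

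**Figure D3:**
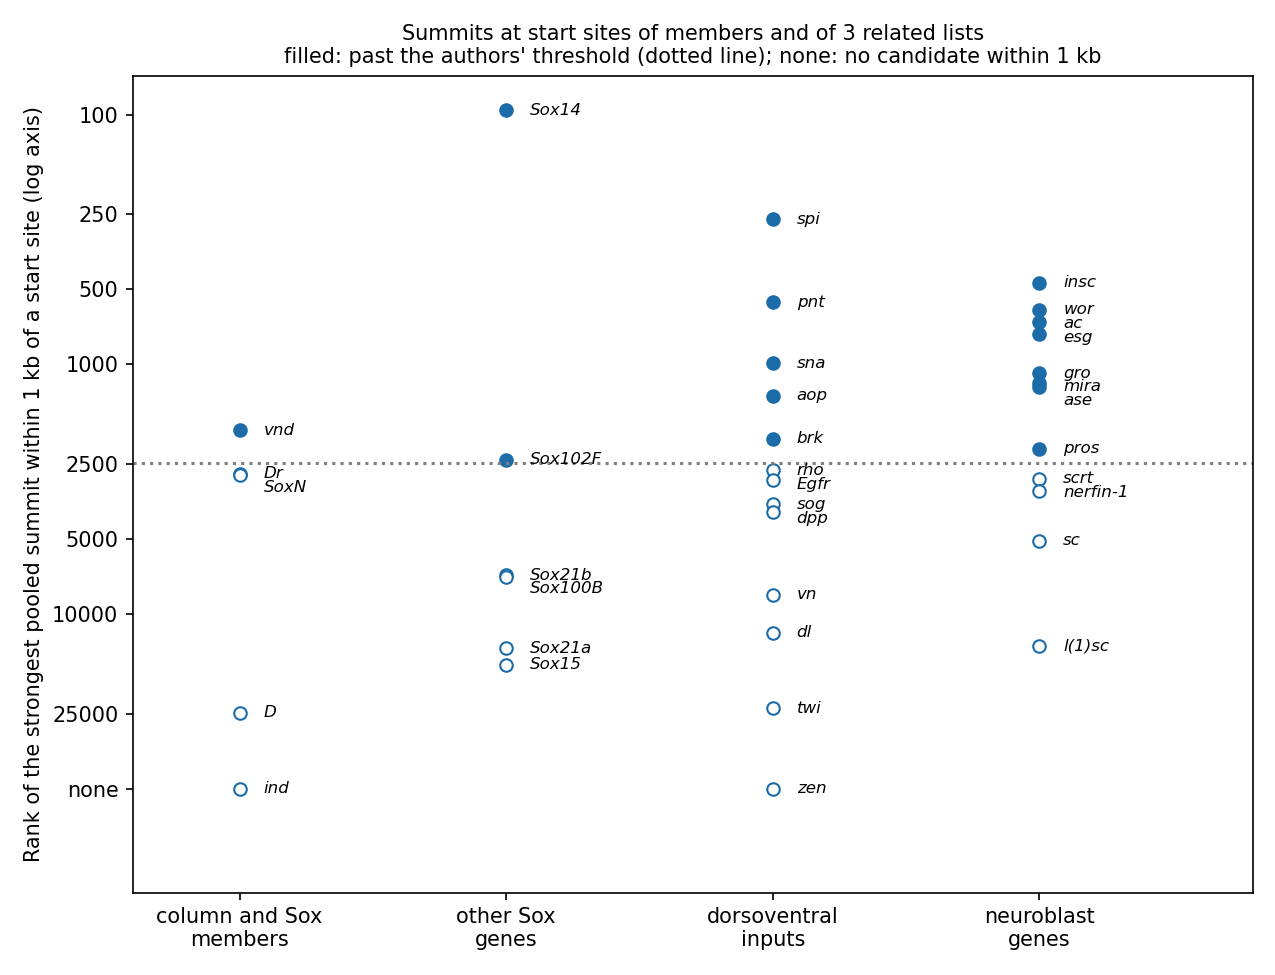
Rank of the strongest pooled summit within 1 kb of a start site (vertical, log axis, strongest at the top) for the 5 genes and the 3 related lists. Filled points pass the authors' threshold, drawn as a dotted line at rank 2487: 1 of 5 members, 2 of 6 other Sox genes, 5 of 13 dorsoventral genes and 8 of 12 neuroblast genes.

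The genes most like each member in this readout were found by the distance over 5 standardised values, namely the numbers of thresholded and pooled summits in the window and the log2 strongest signal in the pooled list and in each of the 2 replicates, among 12159 protein-coding genes with a candidate in all 3 lists. They were PsGEF for vnd, mag for ind, Wdfy2 for Dr, mthl2 for SoxN and CG44303 for D. PsGEF, for example, had 1 thresholded summit and 6 candidates, with strongest signals of 135, 68.0 and 77.2 in the pool and in replicates 3 and 4.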

How the data were processed

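Peak lists of 2 samples in 1 group were analysed. The authors called candidates for each replicate and for the pool against a shared control alignment on dm6, and derived the thresholded list from all 3, per the file descriptions deposited with them. The deposited value per peak is a signal against that control. No source used here names the aligner, the peak caller, the threshold or the depth. Summits were matched between lists within 100 bp. Genes came from Ensembl release 115 and sequence from the RefSeq copy of this assembly, and no peak ran past a chromosome end.

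The members, lists and motifs were chosen with earlier results of these data known, and TATCGATA was added after its sequence was seen. By rule, the thresholded summits, the 3 strongest candidates per member, their nearest genes, bound list genes and the most alike gene (over 20 kb away) are named; other summits and unbound list genes are named for completeness, and PsGEF was picked as an example after the values were seen. Whether the replicates came from separate collections is not stated. No test was run. Counting was checked on planted positions. Alternatives were other windows, distances, list cuts, matching limits and each replicate alone. Python 3.11.15, numpy 2.4.6, pandas 2.3.3 and matplotlib 3.10.9 were used.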

Additional observations from a re-analysis of the deposited data

How the results depend on the processing

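The count of 3 thresholded summits was 3 without the span, with the nearest gene required and without either replicate, and 2 within 5 kb. The genes behind it changed: without replicate 4, the strongest candidates of replicate 3 gave vnd, SoxN and D, and without replicate 3 those of replicate 4 gave vnd, Dr and D. Widening the window to 20 kb gave 8 thresholded summits, with 1 in the window of ind, 2 in that of SoxN and 3 in that of D, and 75 candidates. The summit in the ind window was nearest to Sytbeta, and those added at D were nearest to the gene nuf, at 48 and 5069 bp. Those of SoxN had SoxN as the nearest gene. The stronger 1243 thresholded peaks left 1 summit, at D, and 0 bound members. Members bound were 1 within 500 bp and 2000 bp, 2 within 5000 bp (vnd and D), 3 within 10000 bp, and 1 to 2 without a replicate (SoxN joined without replicate 4). Candidates were 39 to 42 from a single replicate. The number of the 33 matched in both replicates was 8 at 50 bp and 16 at 200 bp. Windows with a family site numbered 5 when they reached 50 bp to each side and 13 when they reached 200 bp. The 3 lists together had 15 bound genes, 13 to 17 without a replicate, 11 among the stronger peaks and 14 to 22 at other distances. Shares of all protein-coding genes are given here for 1 kb (11.9%), each replicate alone (12.2% and 11.5%) and the 10 kb window with the span (37.2%). They are not given for the other distances and windows or for the stronger peaks, so those counts cannot be read against a background. No cause was tested. No paired analysis was possible because the samples form 1 group. Depth is unknown, and the promoter summits of Dr and SoxN stood just short of the threshold.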
